A study of Caenorhabditis elegans with 4 samples.

Results

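The FKH-10::GFP peaks on the X chromosome of Caenorhabditis elegans were taken as every peak placed on X in the peak list deposited for the series as a whole, which gave 835 of 3792 peaks. FKH-10 is a member of the forkhead family of transcription factors, which bind DNA through a winged-helix domain and are known for roles in development and cell identity. Hermaphrodite worms carry a pair of X chromosomes, whose transcription a dosage compensation complex lowers in somatic cells, and the X chromosome is known to carry few genes that are active in the germline. ChIP-seq with an antibody against GFP lists the stretches of the genome recovered with the tagged protein from crosslinked chromatin. With whole animals, a peak does not say in which cells the protein was bound.

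The 4 samples are 2 ChIP libraries and 2 input libraries, numbered 1 and 2, from L4 hermaphrodites grown at 20 °C, and the values analysed are the peak lists of the ChIP libraries and the list for the whole series. All samples share 1 strain, OP337, which carries the unc119(ed3) allele and the transgene wgIs377. The transgene holds fkh-10 joined to TY1, EGFP and FLAG tags together with unc119 as a marker, so these are present throughout, and no untagged strain was compared. The transgene was made by recombineering and brought in by bombardment, per the labels, and the labels describe the fusion as expressed where and when fkh-10 is. Separate cultures are not mentioned for the replicates, so the spread between them may be technical.

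Replicate 1 listed 296 peaks on X among 1169, and replicate 2 listed 568 among 2468. X held 22.0% of the peaks of the series-level list (exact 95% interval 20.7 to 23.4), 25.3% of those of replicate 1 (22.8 to 27.9) and 23.0% of those of replicate 2 (21.4 to 24.7). The files give no read counts, so the depth behind each list is unknown. The intervals take each peak as independent and reflect only counting error. Peaks of a list come from the same libraries and are not replicates, so no test was run between X and the autosomes, and no value below is called particular to X.

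Near its right end, X carries a run of adjoining peaks from X 16343266 to 16379949, called the block here. It is the only chain of series-level peaks on X that has gaps of at most 5 kb and covers at least 10 kb. Its 9 series-level peaks are described apart, at the end. The values that follow are for the 826 peaks outside it unless the block is named, with 276 such peaks in replicate 1 and 547 in replicate 2.

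X was most heavily represented among the strongest peaks. A peak's strength is its deposited q-value, used as a rank within its own list, with the smallest q-value as rank 1. Of the strongest 1% of series-level peaks, 20 of 38 lay on X (52.6%, interval 35.8 to 69.0), against 6 on chromosome IV, 4 each on III and V and 2 each on I and II. In replicate 2 the count was 16 of 24 (66.7%, interval 44.7 to 84.4), and in replicate 1 it was 4 of 11 (36.4%, interval 10.9 to 69.2). Chromosome I held 3 of these peaks in each replicate, the most of any autosome. With the block included, X made up 63.2% of the strongest 1% of the series-level list. The steps of 1% to 100% were chosen after the values had been seen.

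In the series-level list the share of X fell as weaker peaks were added. It was 31.6% of the strongest 2.5% (interval 22.4 to 41.9), 23.8% of the strongest 5% (17.9 to 30.5) and 23.0% of the strongest 10% (18.9 to 27.6), against 21.8% of the whole list. The strongest 2.5% of replicate 1 were 48.3% on X (14 of 29, interval 29.4 to 67.5) and those of replicate 2 were 42.6% (26 of 61, interval 30.0 to 55.9). At the strongest 10% the shares were 28.7% and 23.7%. Over the whole list the share of X was 24.0% in replicate 1 and 22.4% in replicate 2. At the strongest 2.5% the interval lay above the whole-list share in each list. At the strongest 5% it did so only for replicate 1 (26.0 to 52.4). There the interval held that share for replicate 2 (21.6 to 38.4) and for the series-level list. At the strongest 1% of replicate 1, with 11 peaks, the interval held that share. These intervals take peaks as independent and the steps were chosen afterwards, so they do not serve as a test. The 3 lists may also share reads, so they are not separate observations. Over all ranks the median X peak stood at 50.2% of the series-level list, against 50.1% for the autosomes. In the replicates it stood nearer the top, at 45.8% against 52.4% in replicate 1 and at 48.9% against 50.7% in replicate 2.

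**Figure D1:**
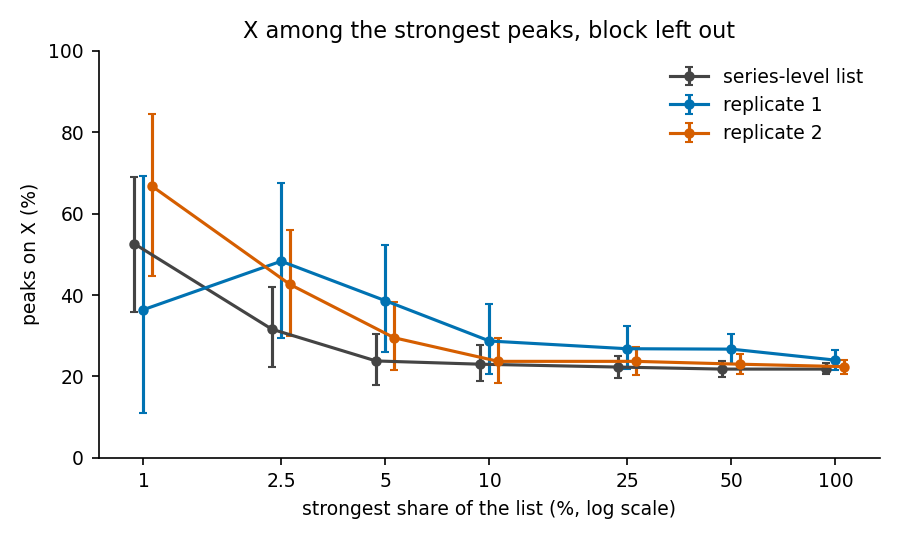
Percent of peaks that lie on X (vertical axis) among the strongest 1% to 100% of each peak list (horizontal axis, log scale), without the block; points are shares, bars are exact 95% intervals, and the lists are set slightly apart sideways. The series-level share falls from 52.6% to 21.8%, and both replicate lists end near 24.0% and 22.4%.

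The 20 X peaks in the strongest 1% of the series-level list were spread over the whole chromosome. When the X span was cut into 10 equal segments, each held at least 1 of them and none held more than 5. They lay between X 992489 and X 17480505. Neighbours among them lay 156.4 kb to 2002.9 kb apart, with a median of 824.1 kb. They were 654 to 1676 bp wide, with a median of 1014.5 bp, and all 20 were found in both replicates. Their ranks ran from 12 to 69 of 1169 in replicate 1 and from 5 to 55 of 2468 in replicate 2. Strong peaks elsewhere mostly recurred too. Over the wider range of series-level ranks 8 to 377, 98.3% of peaks on chromosomes II to V and 90.5% on chromosome I were in both replicates.

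The strongest was X 14525299 to 14526538, which had a q-value of 5.80e-70 (rank 8) in the series-level list, 7.46e-25 (rank 12) in replicate 1 and 2.43e-47 (rank 5) in replicate 2. The second, X 2996366 to 2997523, had q-values of 4.96e-63, 3.92e-23 and 2.93e-39 in the same order. The third, X 8035893 to 8036966, had q-values of 2.35e-58, 2.68e-24 and 2.09e-35. These 3 peaks lie in different parts of the chromosome and each appeared as 1 peak of about 1 kb in every list.

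Next by q-value came X 4208401 to 4209657 at 2.82e-57, X 12362646 to 12363669 at 1.19e-51, X 6296096 to 6297024 at 1.64e-50 and X 12205150 to 12206213 at 2.30e-48. They were followed by X 7284410 to 7285294 at 9.44e-48, X 5728788 to 5730114 at 1.28e-47 and X 11605293 to 11606968 at 5.47e-45. The ranks of these 7 peaks ran from 14 to 22 in the series-level list, from 19 to 42 in replicate 1 and from 9 to 21 in replicate 2. No gene is given for any peak, since the peaks are on WS220 coordinates and the only gene table at hand follows WBcel235.

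X peaks were divided between those found in both replicates, in replicate 2 only and in neither. A peak counted as found in a replicate when it overlapped a peak of that list by at least 1 bp. Of the 826 peaks, 255 (30.9%, interval 27.7 to 34.1) overlapped both replicate lists, where the share over all chromosomes was 27.2%. A further 281 (34.0%) were in replicate 2 only, against 35.1% over all chromosomes, and 17 (2.06%) in replicate 1 only, against 2.45%. The other 273 (33.1%, interval 29.8 to 36.4) were in neither, against 35.2%. These shares varied with how the lists were cut. With only as many of the strongest replicate 2 peaks as replicate 1 has in all, 24.1% of X peaks were in both and 59.0% in neither. Dropping replicate 2 peaks cannot raise the first share or lower the second. With q-values up to 1e-05 in every list, 23.8% were in both and 41.3% in neither. In the stronger 50% of each list, the shares were 32.5% and 30.1%. These settings were not run over all chromosomes, and the cause of the differences was not tested.

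Set beside single autosomes, the X share of peaks in both replicates was close to that of III and IV. It was 30.7% on each of these (intervals 27.1 to 34.5 and 27.0 to 34.5). On V the share was 26.5%, on II it was 25.6% and on I it was 13.9%. The share in neither, 33.1% on X, instead lay between that of II (32.3%) and that of V (35.2%). It was lower on III (28.7%) and IV (28.9%) and higher on I (60.5%).

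Taken from the replicates' side, 258 of 276 X peaks listed by replicate 1 had a counterpart in replicate 2 (93.5%, interval 89.9 to 96.1), where all chromosomes together gave 90.3%. In the other direction, 257 of 547 X peaks listed by replicate 2 had a counterpart in replicate 1 (47.0%, interval 42.7 to 51.3), while all chromosomes gave 42.8%. The second share is limited by the length of the lists, since replicate 1 has fewer peaks. The peaks that recurred were the stronger ones in each list. In replicate 1 their median rank lay at 43.4% of the list, against 88.8% for the X peaks with no counterpart, and in replicate 2 at 24.8% against 68.3%.

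Recurrence fell with series-level strength. This fall may be partly built in, since the series-level list may rest on the replicates' own reads. The X peaks were divided by series-level rank into 10 bins of 82 or 83 peaks, with bin 1 the strongest. All 83 peaks of bin 1 (q up to 4.28e-16) were in both replicates. The share in both was 90.4% in bin 2, 73.2% in bin 3, 32.5% in bin 4, 11.0% in bin 5 and 1.20% in bin 6, and it was 0 in bins 7 to 10. Peaks in replicate 2 only made up most of bins 4, 5 and 6, at 63.9%, 69.5% and 75.9%. Replicate 2 has the longer list, with 2468 peaks against 1169. Peaks in neither were at 0 in bins 1 to 3 and made up 91.5% of bin 10 (q from 5.46e-04).

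Peaks of the same ranks on chromosomes II to V followed a similar course, and those on chromosome I did not. Of their peaks in the rank range of bin 1, 98.3% were in both replicates, and the share was 90.0% in that of bin 2, 57.5% in that of bin 3 and 30.0% in that of bin 4. On chromosome I the shares in these ranges were 90.5%, 48.7%, 17.1% and 0. Chromosome I was kept apart for its low recurrence, so II to V are a group chosen by the measure compared here. Between X and chromosomes II to V the gap was widest in bin 3, ranks 753 to 1101, at 73.2% against 57.5%. That range was singled out after the values were seen and was not tested.

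**Figure D2:**
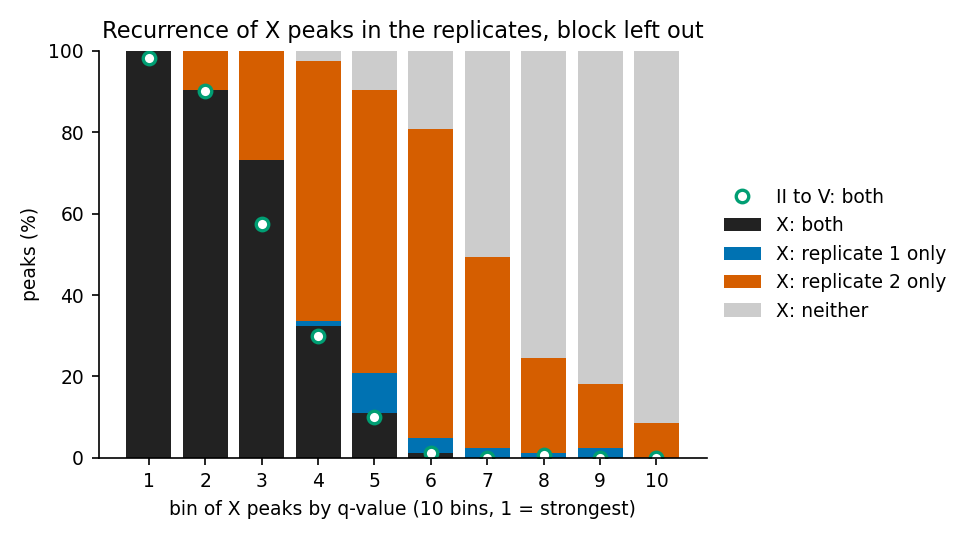
Percent of X peaks outside the block (vertical axis) found in both replicates, in 1 of them or in neither, in 10 bins of X peaks by series-level q-value (horizontal axis, bin 1 is the strongest); open circles give the share in both for peaks of chromosomes II to V in the same rank range. The share in both falls from 100% to 0 as the share in neither rises to 91.5%. Chromosome I, not shown, was kept apart for its low recurrence.

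The strongest X peaks found in replicate 2 alone fell in bin 2 of strength. X 4932731 to 4933340 (q = 4.78e-15, rank 431) was listed by replicate 2 at a q-value of 2.83e-08 and not by replicate 1. X 3802815 to 3803734 (q = 1.04e-13) and X 3513701 to 3514057 (q = 1.45e-12) were likewise in replicate 2 only, at q-values of 8.00e-11 and 8.97e-10. The strongest in replicate 1 only were weaker and lay at X 12550890 to 12551193, X 13519108 to 13519455 and X 844562 to 844953, with series-level q-values of 7.37e-08, 2.62e-07 and 3.41e-07. Replicate 1 gave these 3 peaks q-values of 3.82e-05, 6.35e-04 and 6.25e-04.

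The strongest X peaks in neither list were X 7809515 to 7810604, X 11636082 to 11636843 and X 6690993 to 6691696, with q-values of 1.05e-08, 4.99e-08 and 4.40e-07. They were 1090, 762 and 704 bp wide, against a median of 282 bp for the X peaks in neither list. At the other end, the weakest peaks still in both were X 9798498 to 9798808, X 14480154 to 14480539 and X 3960194 to 3960640, with q-values of 2.54e-06, 1.02e-06 and 6.65e-07. In the replicates none of these 3 had a q-value below 1.72e-04.

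Overlap was rarely a matter of edges. The peaks counted as found in replicate 1 had a median of 81.9% of their length under a replicate 1 peak, and those in replicate 2 a median of 90.3%. Only 1 peak in each comparison overlapped by less than 50 bp, and these peaks are themselves 9 and 8 bp wide and wholly covered. No peak counted as missing lay within 100 bp of a peak of the replicate concerned, and the nearest were 241 bp away in replicate 1 and 298 bp in replicate 2.

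Where a series-level peak matched 1 replicate peak, the centres were close. The median distance was 21.5 bp in replicate 1 (270 pairs) and 17.0 bp in replicate 2 (531 pairs). Between the replicates it was 36.5 bp over 253 pairs, and 90% of these pairs lay within 130.1 bp. Replicate peaks were mostly narrower than the series-level peak, in 256 of the 270 pairs for replicate 1 and 409 of the 531 for replicate 2. A series-level peak outside the block was split into several peaks in 2 cases in replicate 1 and 3 in replicate 2.

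Strength ran alike in the replicates. Over the 255 X peaks in both lists, Spearman's rho between the replicates' ranks was 0.66, and over 770 autosomal peaks it was 0.60. Series-level rank followed that of replicate 1 with a rho of 0.84 (272 peaks) and that of replicate 2 with 0.90 (536 peaks). These values describe peaks that share their libraries, and the series-level list may rest on the same reads.

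Outside the block X peaks were short. The median width was 388.5 bp in the series-level list (quartiles 287.2 and 520.8), 409 bp in replicate 1 and 399 bp in replicate 2, where the autosomes had medians of 371, 382 and 364 bp. Among single chromosomes of the series-level list the median ran from 354 bp on V to 401 bp on I. Along the bins of strength the median width on X fell from 743 bp in bin 1 to 242 bp in bin 10. The peaks of II to V in the rank range of bin 1 had a median of 667 bp.

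Width also differed between the recurrence classes. X peaks in both replicates had a median width of 541 bp (quartiles 443.5 and 732), those in replicate 2 only 387 bp, those in replicate 1 only 331 bp and those in neither 282 bp. The narrowest peak in both was 245 bp wide, while peaks in neither went down to 2 bp. Strength and width move together in these lists, so these medians do not separate recurrence from strength.

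**Figure D3:**
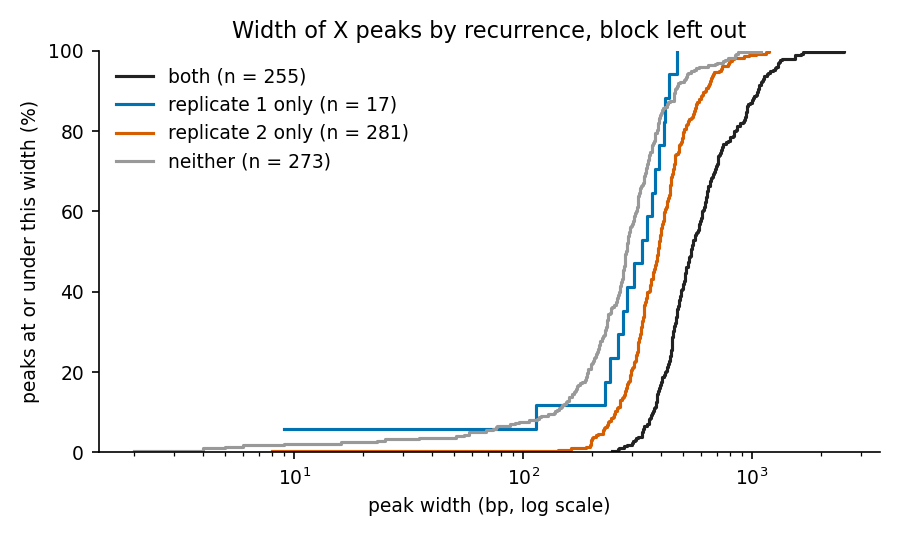
Cumulative percent of X peaks outside the block (vertical axis) at or under a given width in bp (horizontal axis, log scale), with 1 line for each recurrence class. At the medians, the line of peaks in both replicates lies farthest right, at 541 bp, and that of peaks in neither farthest left, at 282 bp.

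Only 35 series-level X peaks outside the block were wider than 1 kb. The widest was X 16929327 to 16931854, at 2528 bp (q = 5.12e-35), which was 1 peak of 2560 bp in replicate 2 and was split in replicate 1. Next came X 11605293 to 11606968 (1676 bp), X 6736478 to 6738118 (1641 bp), X 15188601 to 15190141 (1541 bp) and X 9667515 to 9669051 (1537 bp), all in both replicates. At the other extreme, 12 peaks (1.45%) were narrower than 50 bp, with widths from 2 to 35 bp, against 2.10% on the autosomes. Of these 12, 10 were in neither replicate, 0 in both, and the best rank was 2112. None lay within 1 kb of another peak. Their ranks fall in bins 6 to 10 of strength, where X peaks of any width were in both in at most 1.20% of cases. The share in neither ran from 19.3% to 91.5% over those bins, so the counts for narrow peaks are not separated from rank.

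Peaks were spread over the length of X, from X 305039 to 17628639 in the series-level list. The X span, which runs between the outermost bases of X peaks in any list because chromosome lengths were not used, was divided into 10 equal segments, numbered from the left. The count ran from 71 in segment 5 (X 7227405 to 8960945) to 101 in segment 3 (X 3760323 to 5493863). Segments 2 and 3, with 93 and 101 peaks, and segments 7 and 8, with 89 and 90, stood above segments 5 and 6, with 71 and 72, and the outermost segments, with 74 and 72. Replicate 2 had its highest counts in segments 2 and 3 as well, at 62 each, but its lowest in segment 4, at 47. Replicate 1 ran between 20 and 31 with no rise in segments 2 and 3.

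**Figure D4:**
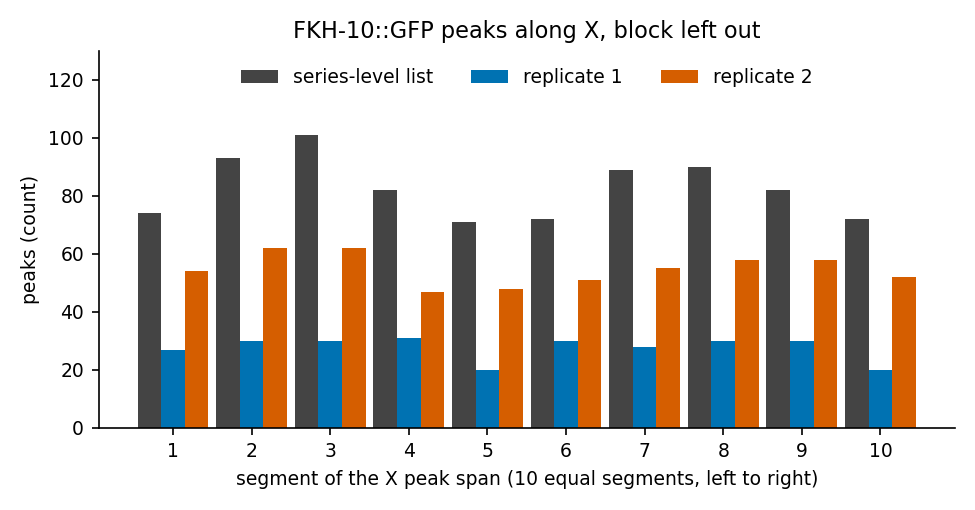
Number of peaks (vertical axis) in each of 10 equal segments of the X peak span from left to right (horizontal axis) for the series-level list and each replicate, without the block. The series-level count is highest in segment 3, at 101, and lowest in segment 5, at 71, while replicate 1 stays between 20 and 31.

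Divided into 3 parts of 33.3% each, the span held 36.4% of X peaks in its left part (interval 33.2 to 39.8), 30.9% in its central part (27.7 to 34.1) and 32.7% in its right part (29.5 to 36.0). The order was the same in both replicates, where the left part held 36.6% and 36.0% and the central part 31.2% and 30.2%. The share of peaks in both replicates ran along the chromosome from 25.0% in segment 10 (interval 15.5 to 36.6) to 36.1% in segment 6 (25.1 to 48.3). The share in neither ran from 25.6% in segment 9 (16.6 to 36.4) to 41.5% in segment 4 (30.7 to 52.9). The intervals of the lowest and the highest segment overlap in both cases.

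Neighbouring X peaks outside the block were separated by a median of 10774 bp, with quartiles of 2818 and 29505 bp. The stretch between the peaks flanking the block is counted as a gap here, although the block's own peaks lie in it. With the block's peaks included, the median was 10274 bp. The median gap was 37740 bp in replicate 1 and 19257 bp in replicate 2, whose lists are shorter. Gaps of at most 1 kb made up 10.3% of the 825 gaps on X and 11.7% of those on the autosomes. Joined across such gaps, the X peaks formed 741 clusters, of which 671 were peaks on their own, 58 were pairs, 10 were triples and 2 held 4 or more peaks. The largest, with 5 peaks, spanned X 16482711 to 16487342, and the other, with 4, spanned X 4574003 to 4577171. Peaks in both replicates had another peak within 1 kb in 20.8% of cases (interval 16.0 to 26.3). The share was 20.3% for those in replicate 2 only and 15.8% for those in neither (11.6 to 20.6), with overlapping intervals. On the autosomes the shares were 24.9% in both, 18.7% in replicate 2 only and 18.2% in neither. For peaks in replicate 1 only, they were 11.8% of 17 on X and 34.2% of 76 on the autosomes.

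Counted in windows of 100 kb, X held a median of 5 peaks a window, with quartiles of 3 and 6. The most crowded was X 5800001 to 5900000 with 16 peaks, 6 of them in both replicates, 2 in replicate 2 only and 8 in neither. Its strongest peak, X 5800308 to 5801621, had a q-value of 7.84e-23, and 5 of the 8 in neither lay between X 5860293 and X 5869864. The next windows, X 2500001 to 2600000 and X 4400001 to 4500000, held 12 peaks each. Their make-up differed, since 9 of the 12 in the latter were in replicate 2 only and 1 was in both, while the former had 3 in both, 3 in replicate 2 only and 6 in neither. These windows were picked out for their counts.

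The longest stretches without a series-level peak were X 1644254 to 1856161 (211.9 kb), X 6487319 to 6689977 (202.7 kb) and X 9150608 to 9337773 (187.2 kb), each given from the last base of the peak before it to the first base of the peak after it. The first and the second were also free of peaks in both replicates. The third held 1 peak of replicate 1, X 9187194 to 9188475, and none that lay wholly inside it in replicate 2. Of the 173 windows of 100 kb other than that of the block, 5 had no series-level peak, 42 had none in replicate 1 and 15 had none in replicate 2.

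Few replicate peaks on X were missing from the series-level list. They were 2 of 276 in replicate 1 (0.725%), where all chromosomes gave 0.855%, and 10 of 547 in replicate 2 (1.83%), where all chromosomes gave 3.00%. The only one shared by both replicates was the leftmost peak of X, X 293241 to 293627 in replicate 1 (q = 7.98e-07) and X 293241 to 293626 in replicate 2 (q = 3.55e-06), with the same first base in both. It lies outside the stretch that the series-level X peaks span. The other in replicate 1 had a q-value of 9.15e-04, and the other 9 in replicate 2 had q-values from 3.97e-05 to 7.30e-04.

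The block, X 16343266 to 16379949, was 36684 bp long and differed in form from the rest of X. This is in part by construction, since the rule that picked it asks for short gaps and many covered bases. Its 9 series-level peaks were 232 to 9325 bp wide, with a median of 2962 bp, and were separated by gaps of 238 to 1320 bp. It held 1.08% of the series-level X peaks but 8.35% of the bases they cover. In replicate 1 its 20 peaks held 16.3% of the X peak bases, and in replicate 2 its 21 peaks held 9.57%. Among the first 10 ranks of all chromosomes were 6 of the 9 peaks in the series-level list, 6 of the 20 in replicate 1 and 2 of the 21 in replicate 2. Very wide peaks were not limited to X: the widest series-level peak in both replicates on chromosome I measured 31648 bp.

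From left to right, the series-level peaks of the block began at X 16343266 (4250 bp, q = 5.11e-150), X 16348836 (1192 bp, q = 2.76e-20), X 16350266 (9325 bp, q = 4.10e-243), X 16359837 (1564 bp, q = 3.53e-40) and X 16361681 (2229 bp, q = 6.30e-68). They went on at X 16364253 (6268 bp, q = 1.55e-190), X 16370901 (232 bp, q = 5.37e-09), X 16371395 (2962 bp, q = 3.76e-67) and X 16374670 (5280 bp, q = 1.64e-119). The short peak at X 16370901 was found in replicate 2 only, and the other 8 were in both replicates.

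The replicates divided the block differently. The first series-level peak was 1 peak of 4231 bp in replicate 1 (q = 1.51e-80), the strongest of the block there, and was 2 peaks of 1204 and 2445 bp in replicate 2. The widest, at X 16350266, was led in replicate 1 by a peak of 2812 bp (q = 3.58e-40) and in replicate 2 by a peak of 3725 bp further right (q = 2.07e-49), the strongest of the block there. The peak at X 16374670 was led by nearly the same stretch in both, X 16374743 to 16376510 (q = 1.79e-29) and X 16374742 to 16376490 (q = 6.32e-26). Of the bases of the block, 61.1% were under a peak in both replicates, 9.84% in replicate 1 only, 12.6% in replicate 2 only and 16.5% in neither.

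The block stood apart from its nearest neighbours. The nearest series-level peaks lay 44826 bp to its left, X 16298129 to 16298439 (rank 2017, in neither replicate), and 65763 bp to its right, X 16445713 to 16446191 (rank 1851, in replicate 2 only). Both flanking gaps are several times the median gap of 10774 bp on X and above the upper quartile of 29505 bp. Gaps elsewhere on X reach 211.9 kb. How steeply the signal falls at the block's edges was not measured, since the lists hold called peaks only. Input DNA was not analysed here, so whether the block is also high in input DNA was not tested.

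**Figure D5:**
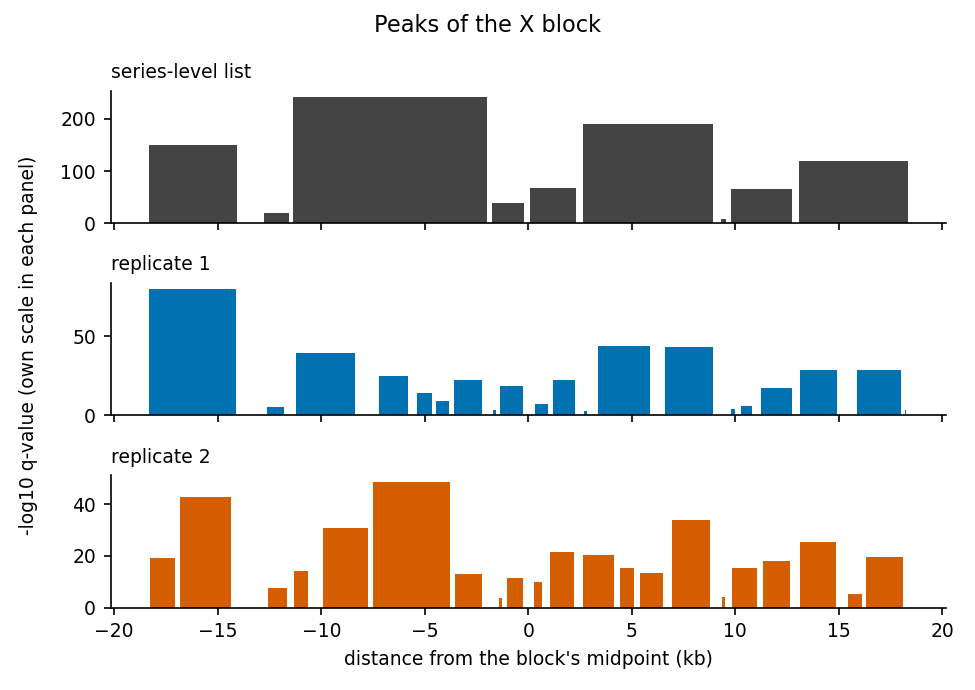
Peaks of the block in the series-level list and in each replicate, drawn to scale by distance in kb from the block's midpoint (horizontal axis), with −log10 of the deposited q-value as height (vertical axis, on its own scale in each panel). The 9 series-level peaks correspond to 20 peaks in replicate 1 and 21 in replicate 2, and the tallest is a different peak in each replicate.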

How the data were processed

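ChIP-seq peak lists of 2 ChIP replicates and of the whole series were used. Positions follow WormBase build WS220, per the file headers, and the deposited lists name PeakSeq as the caller. Its version and threshold, the aligner, the use of input and any pooling behind the series-level list are not given in the sources used. The score column was read as the authors' q-value per peak, since its values lie between 0 and 9.97e-04 in all lists. Peaks were ranked by q-value, ties by number. Depth is unknown. Recurrence means 1 bp of overlap; the block is a chain with gaps of at most 5 kb covering at least 10 kb. Intervals are exact Clopper-Pearson (95%). Python 3.11.15, numpy 2.4.6, pandas 2.3.3, scipy 1.17.1 and matplotlib 3.10.9 were used. Overlap counting was tested on 800 simulated X peaks, of which 100% were put in the right class. The members, named peaks (ranked by strength, width, gap and crowding) and settings were chosen with earlier results of these data known. Gene names and sequences were not used, for want of a genome or gene table of WS220.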

Additional observations from a re-analysis of the deposited data

How the results depend on the processing

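Of 56 alternative values for 9 results on X, 40 stayed within the limit set for their result and 16 moved. The limit was the replicate spread, the interval, a difference under 0.05 for Spearman's rho or, for counts, 1.5 times. The replicate spread is the standard deviation of only 2 values, those of the replicates' own lists. Widths and gaps of these lists were also scored against it. For the gap it was 13069.5 bp, above the reported median gap of 10774 bp, so even 19257 bp from replicate 2 alone stayed within it. The number that stayed is thus no measure of stability for the gap. The alternatives for the strongest 1% were chosen after seeing the data, and all stayed within the interval. They were 36.4% and 66.7% with 1 replicate's list and 63.2% with the block. They were 55.9% with peaks within 1 kb merged and 56.8% without the blocks of any chromosome. This interval, 35.8 to 69.0 from 38 peaks, is so wide that staying within it says little, and the replicates lie far apart. With as many replicate 2 peaks as replicate 1 has, 24.1% of X peaks were in both and 59.0% in neither. At q up to 1e-05 these were 23.8% and 41.3%, the median width 464 bp, the median gap 19328.5 bp and the count 491. In the stronger 50% the width was 489 bp, the gap 23439 bp and the count 412. Both gaps are over 1.5 times that of all X peaks and are counted as within the spread only because the replicates' own gaps lie far apart. Merging gave a width of 403 bp. With 1 replicate left out, the share found was 32.9% to 64.9%, the share not found 35.1% to 67.1%, width 399 to 409 bp, gap 19257 to 37740 bp, central share 30.2% to 31.2% and count 276 to 547. The cause of these moves was not tested, except that counts fall as lists are cut by construction. No paired analysis was possible because the lists used give values for the ChIP libraries and none for their inputs, which leaves no second group to pair. A peak missing from a replicate may lie below its detection limit, since depth is unknown.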
